A study of Mus musculus with 13 samples.

Results

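The 10 genes described here are transcripts that report on, restrain or feed the RAS–RAF–MEK–ERK cascade, the mitogen-activated protein kinase (MAPK) pathway through which growth factor receptors drive proliferation. They were chosen by name out of 49315 gene identifiers in the count tables: the phosphatase genes Dusp4 and Dusp6, the inhibitor genes Spry2, Spry4 and Spred1, the transcription factor genes Etv1, Etv4 and Etv5, the kinase gene Braf and the adaptor gene Shc4. Each name matched 1 identifier in the GENCODE M21 annotation, and all 10 genes had a count in every library and passed the filter on low counts in both comparisons.

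Active ERK induces several of these genes, and their products act back on the cascade. Dual specificity phosphatases remove the activating phosphates from MAP kinases, and Sprouty and Spred proteins dampen signalling between the receptor and RAF. The PEA3 group of ETS factors (Etv1, Etv4 and Etv5) carries the signal to target genes, and the capicua repressor (Cic) holds PEA3 genes down until ERK relieves it. Braf is a kinase of the cascade rather than a readout of it, and Shc4 belongs to the Shc adaptors that link receptor tyrosine kinases to RAS. In melanocytes and melanoma the pathway is a main route to growth.

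Bulk RNA sequencing was done on undissociated tissue, the lymph nodes that drain a tumour (tdLN) and the tumours, from female mice that had received 5 tamoxifen doses of 0.1 mg per g at 6 to 8 weeks of age and, after 9 days, an intradermal injection of 200000 B16F10 cells (a pigmented mouse melanoma line) in matrigel at up to 11 weeks of age. Foxp3ΔJag1 mice carried Foxp3eGFP-Cre-ERT2, a tamoxifen-inducible Cre driven by the regulatory T cell gene Foxp3, with floxed Jag1 (fl/fl in the design text), which encodes the Notch ligand Jagged-1. Foxp3Ctrl mice are labelled WT in the sample labels and appear as Foxp3eGFP-Cre-ERT2 Jag1 fl/wt in the design text, so the controls may carry the Cre and 1 floxed allele. All mice of both groups had tamoxifen and tumours, and the Foxp3 locus limits Cre to cells that express Foxp3. The report rests on 9 libraries, 3 from Foxp3Ctrl tdLN, 3 from Foxp3ΔJag1 tdLN and 3 from Foxp3Ctrl tumours, and by the mouse codes in the library names control node and control tumour with the same number came from the same mouse.

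Total counts lay between 32117478 and 44540888 per library. Levels are given as CPM, the read count divided by the total of its library and scaled to a common total. The summed level of 7 melanocytic markers was 17648 to 23065 CPM in tumours and 10.8 to 36.5 CPM in nodes, and that of 5 B cell markers 3.69 to 6.57 CPM in tumours and 2837 to 3357 CPM in nodes, as the tissue labels say. The targeted gene Jag1 averaged 23.2 ± 1.21 CPM in control nodes and 24.1 ± 3.58 CPM (SD, n = 3 each) with the deletion, which was therefore not visible in whole-node RNA. In whole tissue, fewer cells of a type and less RNA per cell cannot be told apart.

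Promoters of 7 members were found in the RefSeq table of GRCm38.p6, each 300 bases long and reaching from 250 bases before to 50 bases after a transcript start. Those of Shc4 and of a start of Etv5 are shown because both hold several matches to capicua octamers or to a variant, TGAATGGG. That variant was added to the search after these promoters were read, and all matches in Etv5 are to it. Among the members, Shc4 differed most between tumour and node, and Etv5 had the least certain difference. Capitals mark each match on either strand to TGAATGAA, TGAATGGA or TGAATGGG, and in Shc4 also the match to the AP-1 letters TGANTCA.
Shc4 promoter, chr2:125724099-125724398, minus strand: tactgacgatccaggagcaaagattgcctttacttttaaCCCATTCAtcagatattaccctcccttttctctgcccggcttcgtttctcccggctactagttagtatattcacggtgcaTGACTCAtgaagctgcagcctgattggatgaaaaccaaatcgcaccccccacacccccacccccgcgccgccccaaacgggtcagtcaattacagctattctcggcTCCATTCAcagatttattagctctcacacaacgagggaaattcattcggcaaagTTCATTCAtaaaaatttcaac
Etv5 promoter, chr16:22438319-22438618, minus strand: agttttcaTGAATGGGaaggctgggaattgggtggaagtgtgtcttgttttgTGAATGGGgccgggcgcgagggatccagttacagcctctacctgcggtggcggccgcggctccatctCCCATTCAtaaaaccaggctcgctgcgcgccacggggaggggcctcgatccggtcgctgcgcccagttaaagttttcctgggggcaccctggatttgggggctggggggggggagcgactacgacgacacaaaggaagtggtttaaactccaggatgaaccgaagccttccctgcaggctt

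In the Shc4 promoter the octamers began 211 and 25 bases before the start and at base 30 from the start, all on the strand opposite to the gene, and the AP-1 letters began 131 bases before it. In Etv5 the 3 octamers began 242, 198 and 131 bases before the start. Of 32851 promoters of this length, 4.60% held any of 4 octamers searched on both strands (the 3 above and TGAATGAG) and 0.0578% held at least 3. The cutoff of 3 is the number held by Shc4 and by this start of Etv5, so the 0.0578% does not measure how unusual they are. Of the octamers searched first, TGAATGAA was in 1.30% and TGAATGGA in 1.21% of promoters, and Shc4 held 1 match to each. TGAATGGG and TGAATGAG were added to the search after these promoters were read, and without them Etv5 has no match. The promoters of Dusp6, Spry2, Spred1, Braf, both starts of Etv1 and the other start of Etv5 held none of the 4 octamers. Forms with other letters, such as those beginning TCAATG, were not searched, and their frequency over all promoters was not counted. The sequences show that such forms are present on the strand opposite to the gene in Dusp6 (read as tccattga) and in Spry2 (read as ttcattga). The lack of the 4 octamers therefore does not mean that Dusp6 and Spry2 lack related letters, and Shc4 and Etv5 are not set apart by it. The Braf promoter held the cyclic AMP response letters TGACGTCA 99 and 81 bases before the start, letters found in 1.79% of promoters, and the M-box letters TCATGTG (3.77% of promoters) on the opposite strand 236 bases before it. No member promoter held the ETS letters CCGGAAGT, which 3.89% of promoters did. A match is a description of the letters in this window only.

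Across libraries the members differed far more by tissue than by genotype. In Foxp3Ctrl tumours against Foxp3Ctrl nodes 9 of the 10 members rose, 0 fell and Etv5 did not pass the test, with edgeR's quasi-likelihood test at a Benjamini-Hochberg adjusted p under 0.05. The background is high: of 18566 genes tested, 73.2% were called (75.0% at an unadjusted p under 0.05), 35.6% as higher and 37.6% as lower. Called and at least 2-fold higher were 8 of the 10 members and 22.1% of all genes. All tumours lay above all control nodes for 9 members, against 36.5% of genes, and below for 0 members, against 41.5% of genes (77.9% in either direction). The median log2 fold change of the members was 1.96, with a range of 0.50 to 8.64, beside a median of -0.05 over all genes tested. Foxp3ΔJag1 nodes against Foxp3Ctrl nodes gave 0 members called among 18440 genes tested, of which 0.038% were called, 0.0325% as higher (all of them at least 2-fold) and 0.00542% as lower.

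**Figure D1:**
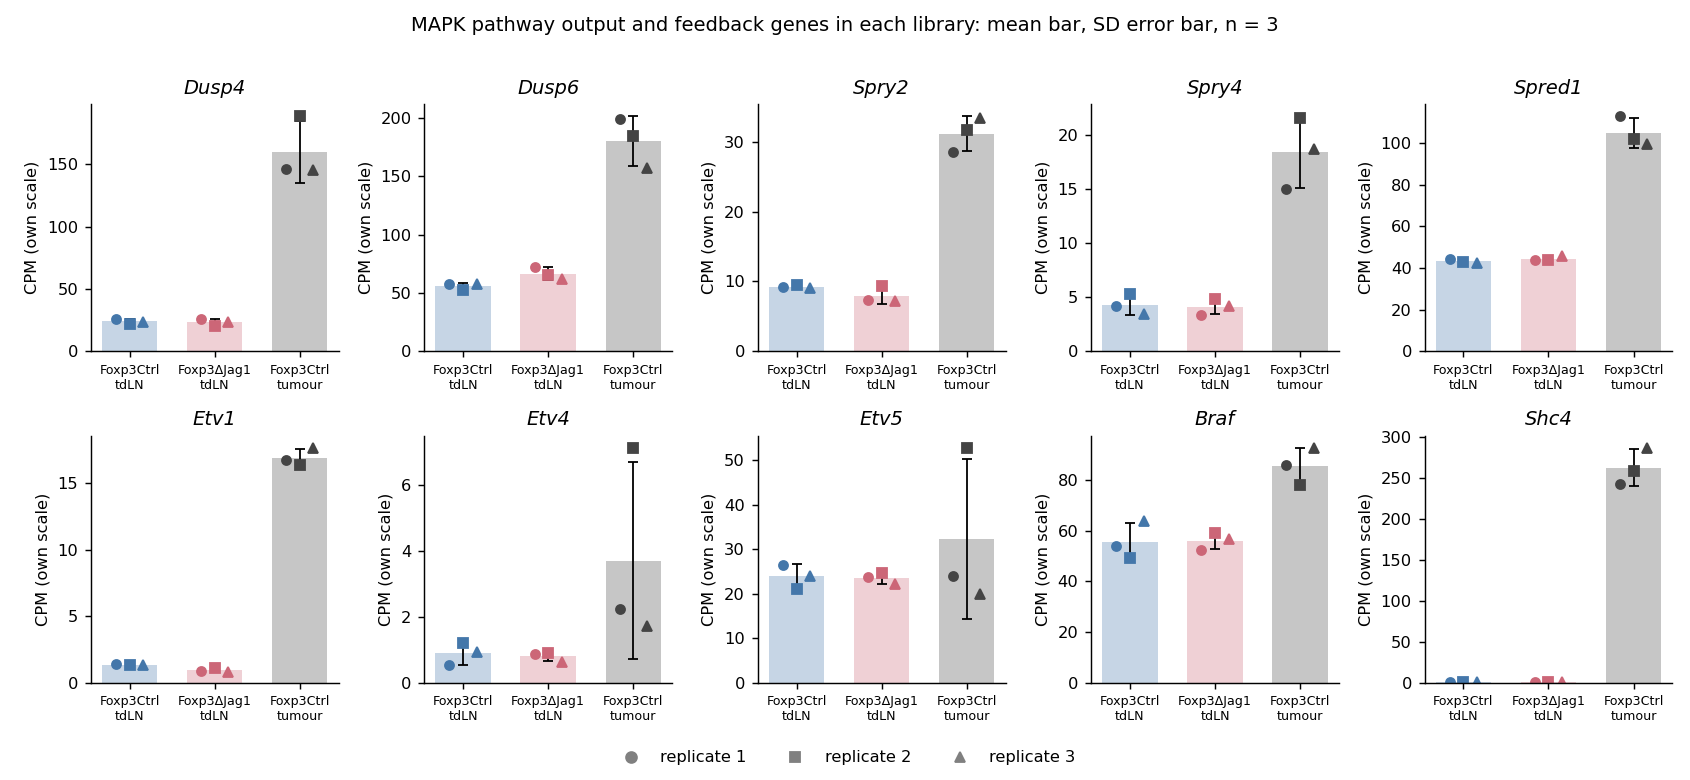
Level of each member in every library, in CPM on a linear axis scaled per gene. Points are libraries (shape gives the replicate number), bars are means and error bars SD (n = 3). The tumour points lie above all node points for every member except Etv5, and tumour replicate 2 stands above the other tumours for Etv4 and Etv5.

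The phosphatase genes come first. Dusp4 (chromosome 8, 34807297 to 34819894), whose product is a nuclear phosphatase of MAP kinases, was at 26.0, 22.0 and 23.5 CPM in Foxp3Ctrl nodes, 25.8, 20.3 and 23.4 CPM in Foxp3ΔJag1 nodes and 146, 188 and 146 CPM in tumours. The node groups overlapped throughout, and every tumour lay above every node. Dusp4 rose in tumours by 2.80 ± 0.14 on the log2 scale (SE; 6.98-fold; edgeR adjusted p = 1.59e-06), and within each mouse the tumour CPM was 5.60, 8.56 and 6.20 times that of the node.

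Dusp6 (chromosome 10, 99263231 to 99267489), whose product is a cytoplasmic phosphatase selective for ERK, was at 57.9, 52.9 and 57.3 CPM in Foxp3Ctrl nodes, 72.3, 65.7 and 62.0 CPM in Foxp3ΔJag1 nodes and 199, 184 and 157 CPM in tumours. The 3 groups did not overlap. Its rise in tumours was smaller than that of Dusp4, at 1.74 ± 0.11 (log2, SE; 3.35-fold; edgeR adjusted p = 4.62e-06). Per exon length (CPM divided by the exon length in kilobases, RPKM), Dusp6 was thus 1.95, 2.10 and 2.13 times as abundant as Dusp4 in the Foxp3Ctrl nodes and 1.20, 0.856 and 0.944 times in the tumours. The share of Dusp4 in the summed RPKM of the pair was 32.7 ± 1.09% in Foxp3Ctrl nodes and 50.3 ± 4.29% in tumours (SD, n = 3 each), with an exact 2-sided permutation p of 0.1, the smallest that 3 against 3 can give. That p was 0.125 after adjustment over 10 tests of family composition. The share is fixed by the ratio of the same library, so these 10 tests are not independent.

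Among the inhibitors, Spry4 (chromosome 18, 38586247 to 38601415) was at 4.16, 5.27 and 3.44 CPM in Foxp3Ctrl nodes, 3.38, 4.80 and 4.22 CPM in Foxp3ΔJag1 nodes and 15.0, 21.6 and 18.7 CPM in tumours. The lowest tumour was far above the highest node. The rise in tumours was 2.15 ± 0.24 (log2, SE; 4.44-fold; edgeR adjusted p = 8.82e-05).

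Spry2 (chromosome 14, 105891947 to 105896819), the other Sprouty gene of the set, was at 9.17, 9.43 and 9.00 CPM in Foxp3Ctrl nodes, 7.34, 9.41 and 7.16 CPM in Foxp3ΔJag1 nodes and 28.5, 31.7 and 33.4 CPM in tumours. It rose in tumours 3.52-fold (edgeR adjusted p = 5.92e-06). Spred1 (chromosome 2, 117121374 to 117182279), whose product brings the RAS inactivator neurofibromin to the membrane, varied little between nodes, at 44.4, 42.8 and 42.2 CPM in the controls and 43.6, 44.0 and 45.6 CPM in Foxp3ΔJag1 mice. In tumours it was at 113, 102 and 99.4 CPM, a rise of 2.53-fold (edgeR adjusted p = 7.27e-06). Nf1, the neurofibromin gene, was at 39.3 ± 1.91 CPM in these nodes and rose to 139.9 ± 17.3 CPM in tumours (SD and n = 3 for both; adjusted p = 2.80e-06 with edgeR).

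The PEA3 factors did not move together. Etv1 (chromosome 12, 38779380 to 38870484) was at 1.43, 1.30 and 1.35 CPM in Foxp3Ctrl nodes, 0.859, 1.09 and 0.831 CPM in Foxp3ΔJag1 nodes and 16.8, 16.4 and 17.7 CPM in tumours. Its tumour values were the tightest of any member, and it rose by 3.69 ± 0.16 (log2, SE; 12.9-fold; edgeR adjusted p = 8.18e-07).

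Etv4 (chromosome 11, 101769742 to 101785371) was low everywhere, at 0.523, 1.21 and 0.931 CPM in Foxp3Ctrl nodes, 0.885, 0.905 and 0.629 CPM in Foxp3ΔJag1 nodes and 2.24, 7.13 and 1.71 CPM in tumours. These are 19 to 52 counts per node and 84, 292 and 55 counts in the tumours. The rise was 2.11 ± 0.61 (log2, SE; edgeR adjusted p = 0.0155). It was 1.23 (adjusted p = 0.0320) without tumour replicate 2, and the call ended without Foxp3Ctrl node replicate 1 or 3 (adjusted p = 0.0520 and 0.0529).

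Etv5 (chromosome 16, 22381309 to 22439719) was at 26.5, 21.1 and 24.0 CPM in Foxp3Ctrl nodes, 23.8, 24.6 and 22.1 CPM in Foxp3ΔJag1 nodes and 23.9, 52.8 and 20.0 CPM in tumours. Tumour replicate 1 lay among the nodes, replicate 3 just below the lowest node and replicate 2 far above the highest. The log2 fold change was 0.50 ± 0.37 (SE), with a 95% interval from -0.40 to 1.39 and an edgeR adjusted p of 0.264. Without tumour replicate 2 it was -0.04 (adjusted p = 0.828).

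Tumour replicate 2 was thus the highest tumour for Etv4 and Etv5, and also for Dusp4 and Spry4, but not for Dusp6, Spry2, Spred1, Etv1, Braf or Shc4. In the same library Sox10 was at 876 CPM (606 and 673 CPM in replicates 1 and 3) and Mitf at 810 CPM (656 and 607 CPM), both of them melanocyte lineage factors. The summed melanocytic markers did not set it apart, at 18927 CPM against 17648 and 23065 CPM. The summed myeloid markers were lowest there, at 421 CPM against 765 and 619 CPM, and the early response gene Egr1 was at 7.40 CPM against 19.0 and 20.4 CPM. The part of these in the Etv4 and Etv5 values was not tested.

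**Figure D2:**
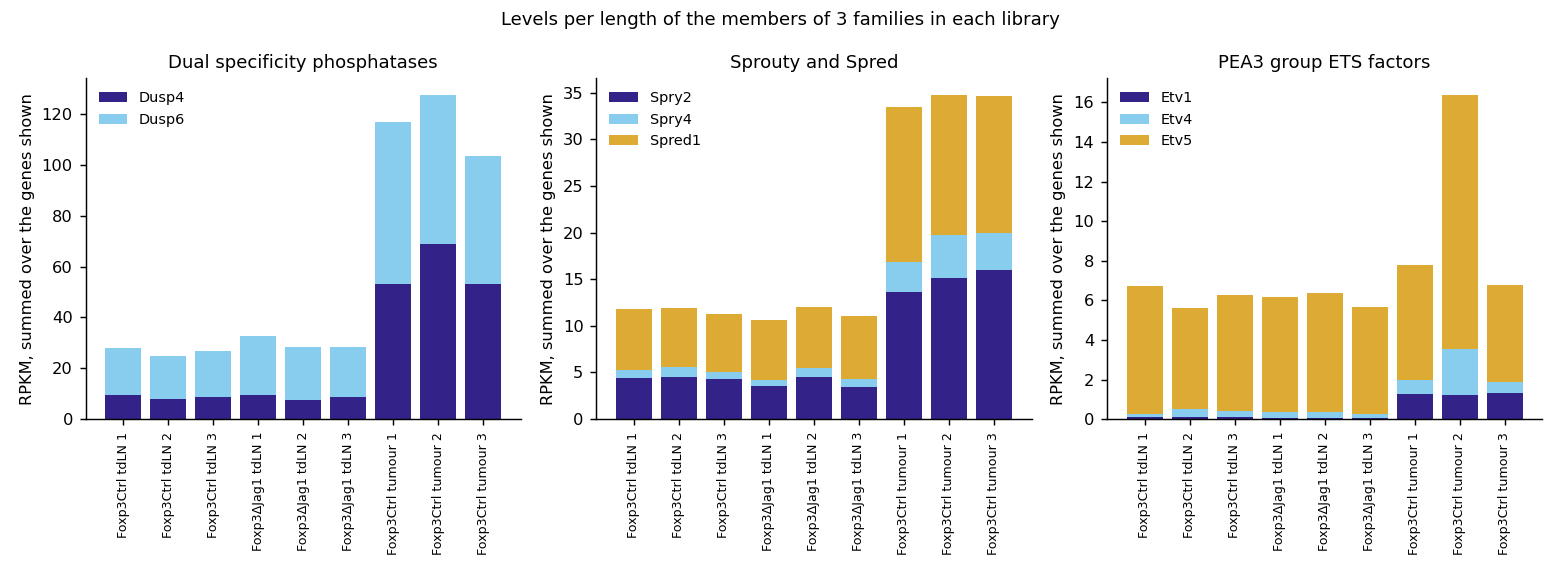
Summed RPKM of the phosphatase, Sprouty and Spred, and PEA3 group members in each of the 9 libraries, with 1 colour per gene. Phosphatase and inhibitor sums are higher in all 3 tumours than in any node, whereas the PEA3 sum is set by Etv5 and stands out in tumour replicate 2, at 16.4 RPKM.

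Per length, Etv5 made up 95.9, 91.3 and 93.6% of the summed PEA3 level in Foxp3Ctrl nodes and 74.6, 78.5 and 72.2% in tumours. The share of Etv1 was 1.60, 1.74 and 1.63% in these nodes and 16.2, 7.52 and 19.7% in tumours. These shares rest on union exon lengths of 13296 bases for Etv1, 4103 for Etv5 and 3104 for Etv4. Without division by length, the tumour means were 16.9 CPM for Etv1, 32.2 CPM for Etv5 and 3.69 CPM for Etv4. For both shares the tumours and the nodes did not overlap, with an exact 2-sided permutation p of 0.1, again the smallest possible. Spred1 held 54.5 ± 1.45% of the summed level of Spry2, Spry4 and Spred1 in Foxp3Ctrl nodes and 45.1 ± 4.04% in tumours (SD, n = 3 each; same p).

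Braf (chromosome 6, 39603237 to 39725463) changed least among the called members, from 53.7, 49.1 and 63.6 CPM in Foxp3Ctrl nodes to 85.9, 77.9 and 92.4 CPM in tumours (1.61-fold; edgeR adjusted p = 0.000448). The Foxp3ΔJag1 nodes, at 52.2, 59.0 and 56.8 CPM, lay within the range of the control nodes. Exons of Braf share 146 bases with Ndufb2 on the opposite strand, which rose 3.05-fold, and the strand setting of the counting is not given in the sources used here.

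Shc4 (chromosome 2, 125627447 to 125724148) separated the tissues most of all members. It had 30, 24 and 24 counts in Foxp3Ctrl nodes (0.826, 0.557 and 0.677 CPM), 11, 18 and 24 counts in Foxp3ΔJag1 nodes (0.286, 0.543 and 0.539 CPM) and 9091, 10587 and 9208 counts in tumours (242, 258 and 287 CPM). The log2 fold change between tumour and control node was 8.64 ± 0.17 (SE; 398-fold; edgeR adjusted p = 8.24e-08), sixth by p among all genes tested, and the ratios within the 3 mice were 293, 464 and 424.

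The exons of Shc4 share 527 bases with Eid1 on the opposite strand. Eid1 had 1748 to 2312 counts in nodes, where Shc4 had at most 30, and rose 2.16-fold in tumours. Melanocytic transcripts were present at low level in nodes and highest in Foxp3Ctrl node replicate 3, where Dct, a pigment enzyme gene, had 282 counts against 0 to 11 in the other nodes. Shc4 in that node, at 0.677 CPM, was the second highest of the 6 nodes, below Foxp3Ctrl replicate 1. The part of melanocytic RNA in the Shc4 level of the nodes was not tested. Its relatives Shc1, Shc2 and Shc3 rose in tumours as well, with log2 fold changes of 0.43, 2.15 and 6.11, although Shc3 had 0, 0 and 1 counts in the control nodes and 25, 44 and 21 in tumours, so its fold is uncertain.

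**Figure D3:**
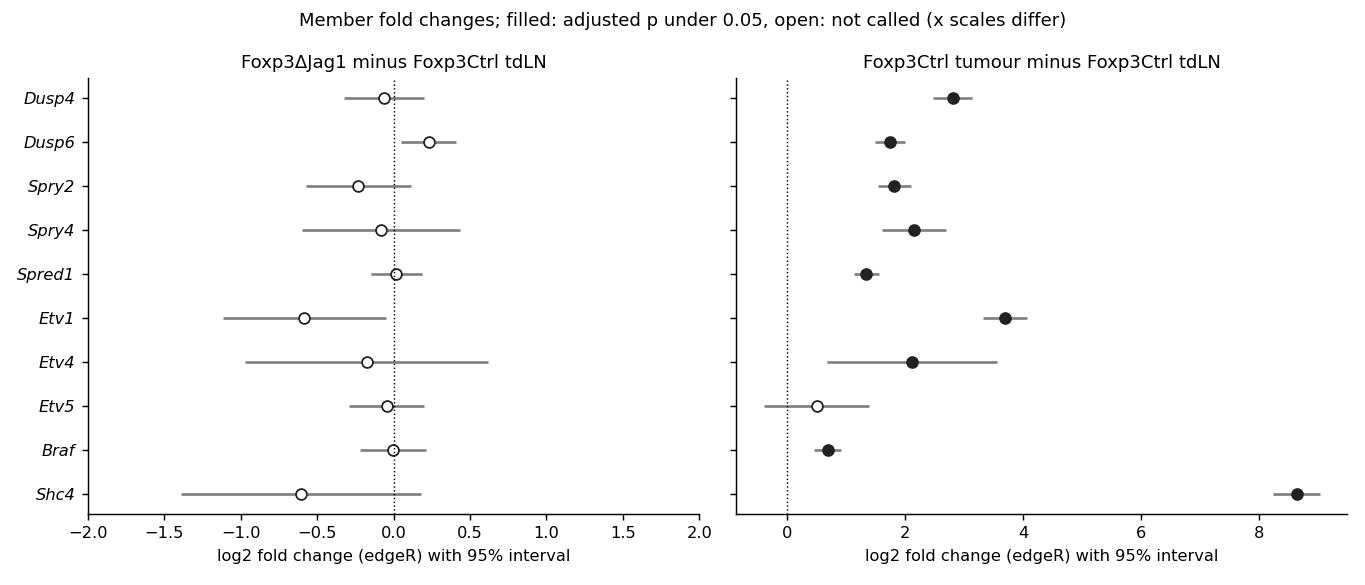
Log2 fold change of each member from edgeR with its unadjusted 95% interval (line). Filled points had an adjusted p under 0.05, and the x axes of the panels differ. In the genotype comparison all points are open and lie between -0.60 and 0.23, and in the tissue comparison all but Etv5 are filled.

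Ordered by RPKM, the members ran in Foxp3Ctrl nodes from Dusp6 (17.9 ± 0.875) and Dusp4 (8.70 ± 0.740) over Spred1 (6.36 ± 0.165), Etv5 (5.82 ± 0.669), Spry2 (4.41 ± 0.104), Braf (4.00 ± 0.535), Spry4 (0.902 ± 0.194), Etv4 (0.286 ± 0.111) and Etv1 (0.102 ± 0.00498) to Shc4 (0.0831 ± 0.0163; SD, n = 3 each). The library ranges of Spred1 and Etv5, of Spry2 and Braf, and of Etv1 and Shc4 overlapped, and the other neighbours were apart. In Foxp3ΔJag1 nodes the order was the same except that Braf and Spry2, which overlapped, changed places.

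In tumours Dusp4 (58.4 ± 9.01 RPKM) and Dusp6 (57.6 ± 6.81 RPKM) led with overlapping ranges, followed by Shc4 (31.8 ± 2.73 RPKM), which was last in the nodes. Spred1 and Spry2 came next at 15.5 ± 1.06 and 14.9 ± 1.20 RPKM and overlapped. Etv5, Braf, Spry4, Etv1 and Etv4 followed at 7.85, 6.16, 3.88, 1.27 and 1.19 RPKM, with overlap between Etv5 and Braf and between Etv1 and Etv4.

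The genotype comparison asked whether these transcripts differed in the draining nodes of Foxp3ΔJag1 mice. None of the 10 passed edgeR's test over all genes, and none did with DESeq2 or limma-voom. Of the members, 8 had a negative and 2 a positive log2 fold change, with a median of -0.07 (all genes tested, -0.0045). At an unadjusted p under 0.05 there were 2 members, against 3.15% of all genes, and in 3 the genotypes did not overlap, against 7.29% of all genes. Of these 1 was higher (4.11% of all genes) and 2 were lower (3.18%).

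Those were Dusp6, Etv1 and Shc4, and they were apart in different directions. All Foxp3ΔJag1 nodes lay above all Foxp3Ctrl nodes for Dusp6, by a log2 fold change of 0.23 ± 0.08 (SE; 95% interval 0.05 to 0.41; edgeR adjusted p = 0.953). All lay below for Etv1, by -0.58 ± 0.23 (SE; 95% interval -1.11 to -0.05; edgeR adjusted p = 0.953). For Shc4 the value was -0.60 ± 0.34 (SE; 95% interval -1.39 to 0.18; edgeR adjusted p = 0.953). Etv1 had only 33 to 56 counts per node and Shc4 11 to 30, which limits both.

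For the members with higher counts the intervals were narrower. The 95% interval of the log2 fold change was -0.15 to 0.18 for Spred1, -0.22 to 0.21 for Braf, -0.29 to 0.20 for Etv5 and -0.32 to 0.20 for Dusp4, so that a change of 2-fold lies outside each of them. For Spry2 it was -0.57 to 0.11, for Spry4 -0.60 to 0.43 and for Etv4 -0.97 to 0.62. A change of 2-fold also lies outside these, only just for Etv4, and outside that of Dusp6. It lies inside the intervals of Etv1 and Shc4. All these intervals are unadjusted. The RPKM ratio of Dusp6 to Dusp4 was 2.45, 2.83 and 2.31 in Foxp3ΔJag1 nodes, above the 1.95 to 2.13 of the controls (exact 2-sided permutation p = 0.1, the smallest possible, 0.125 after adjustment). The share of Dusp4 in the pair restates this ratio, and that of Etv1 in the PEA3 sum draws on the Etv1 values given above. Both were lower in Foxp3ΔJag1 nodes without overlap and gave the same p. The shares of Etv5 (94.6 ± 0.635% against 93.6 ± 2.28%) and of Spred1 (58.4 ± 3.78% against 54.5 ± 1.45%; SD, n = 3 each) gave an exact permutation p of 0.6 and 0.3.

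The wider pathway gave 0 calls in the nodes as well: 0 of 8 other MAPK phosphatases, 0 of 3 tested other Sprouty and Spred genes, 0 of 25 cascade genes, 0 of 11 other output transcripts, 0 of 9 ETS and capicua genes and 0 of 13 receptor tyrosine kinases. The smallest p among them belonged to the receptor genes Kit, Fgfr2 and Erbb3, at -0.29, -0.82 and -0.53 on the log2 scale (adjusted p = 0.953 for all 3 with edgeR). In these 3 of the 13 receptor genes the genotypes did not overlap, against 7.29% of all genes. Genes picked by a small p tend to be apart, so this adds nothing to the p. The summed epithelial markers were 11.3, 29.4 and 88.5 CPM in the Foxp3Ctrl nodes and 6.85 to 10.1 CPM in the Foxp3ΔJag1 nodes, and Fgfr2 and Erbb3 were highest in the same control replicate 3, at 17.5 and 14.7 CPM. The summed mast cell markers, a cell type known for the Kit receptor, were 29.1, 44.6 and 52.9 CPM in the Foxp3Ctrl nodes and 12.8, 27.2 and 17.8 CPM in the Foxp3ΔJag1 nodes, so that they did not overlap either. Among these markers Tpsb2 was at -1.50 and Cpa3 at -1.18 on the log2 scale (adjusted p = 0.569 and 0.953 with edgeR). The part of epithelial and mast cells in these values was not tested. Of the phosphatases Dusp16 was at 20.8 ± 0.465 and 17.8 ± 1.45 CPM, and of the ETS genes Ets2 at 42.7 ± 3.35 and 38.1 ± 0.921 CPM (SD, n = 3 each).

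The other genes of the pathway were also compared between tumour and node, where 35.6% of all genes tested rose and 37.6% fell. No difference between the lists was tested. All 3 tested other Sprouty and Spred genes rose: Spry1 from 8.07 ± 2.16 to 31.0 ± 4.42 CPM, Spred2 from 26.0 ± 1.65 to 54.5 ± 7.33 CPM and Spred3 from 4.96 ± 1.10 to 14.5 ± 2.16 CPM (SD and n = 3 throughout; adjusted p = 0.000106, 7.96e-05 and 0.000209 with edgeR). Spry3 was too low to test. Of 8 other MAPK phosphatases, 4 fell, 1 rose and 3 did not pass, with a median log2 fold change of -0.74. The p38 and JNK phosphatase gene Dusp10 fell by 1.84 on the log2 scale, Dusp5 by 1.37 and Dusp2, a phosphatase gene of activated lymphocytes, by 1.14.

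Of 11 other output transcripts 4 rose and 3 fell. Phlda1 was at 11.3 ± 0.668 CPM in control nodes and at 258 ± 6.97 CPM in tumours (SD and n = 3 for both), a log2 fold change of 4.56 (edgeR adjusted p = 9.19e-08), and Ier3 and Fos rose by log2 fold changes of 3.63 and 2.81. The cyclin D1 gene Ccnd1 rose as well, whereas Epha2, Egr1 and Spsb1 fell. Of 26 cascade genes 13 rose and 7 fell, with a median log2 fold change of 0.31. Map2k1 and Mapk3 rose by log2 fold changes of 0.65 and 0.92, and the scaffold gene Ksr1 and the RAS relative Rras2 fell by 1.40 and 2.18.

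Of 9 ETS and capicua genes 2 rose and 5 fell. Cic, the capicua gene, fell from 281, 317 and 312 CPM in Foxp3Ctrl nodes to 161, 164 and 167 CPM in tumours (log2 fold change -0.83 ± 0.09 SE, edgeR adjusted p = 9.26e-05), and Elk4 and Ets1 fell by 1.43 and 0.80. Of 13 receptor tyrosine kinase genes tested 3 rose and 6 fell. Met, the receptor of hepatocyte growth factor, went from 11.1, 11.7 and 13.8 CPM to 1574, 1537 and 2171 CPM (log2 fold change 7.23, edgeR adjusted p = 1.46e-07), Erbb3 rose by 2.90, and Flt3, a receptor of dendritic cells and progenitors, fell by 4.66.

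**Figure D4:**
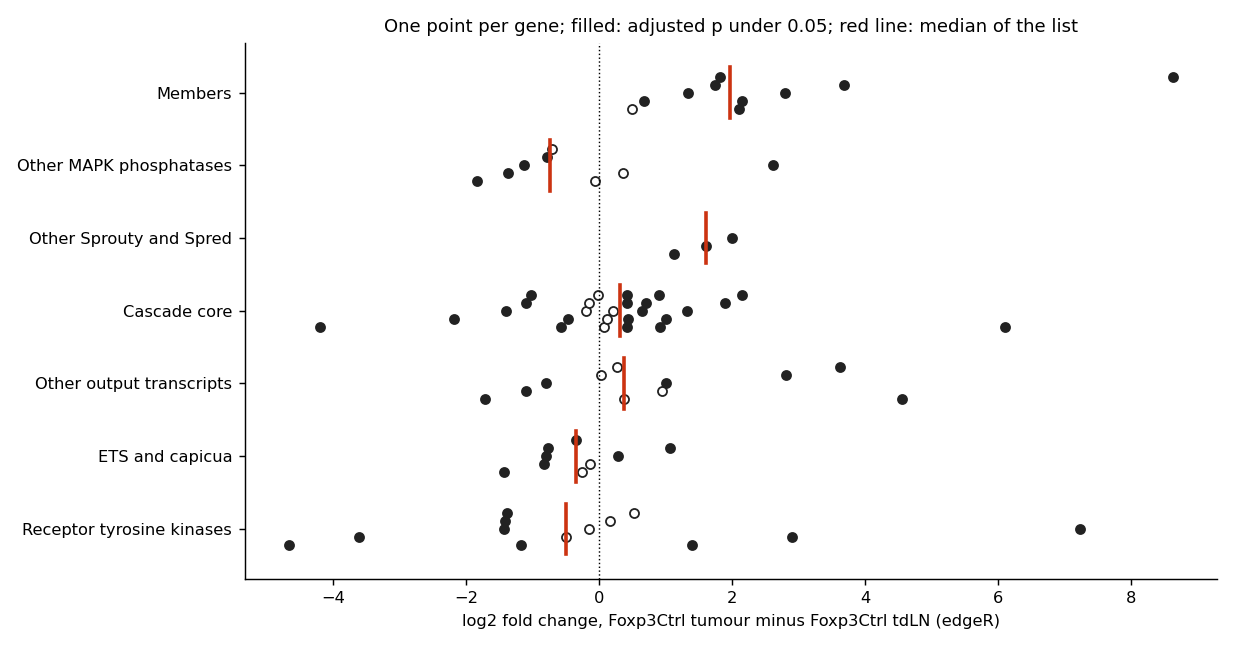
Log2 fold change between Foxp3Ctrl tumour and Foxp3Ctrl node for each tested gene of the members and of 6 wider lists. Filled points had an adjusted p under 0.05 and red lines are list medians. The medians are 1.96 for the members, 1.61 for the other Sprouty and Spred genes and -0.74 for the other MAPK phosphatases.

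Among 15092 protein-coding genes, those nearest to Dusp6 over the 9 libraries, by root mean square distance of centred log2 CPM, were Ddit3, Mtx2 and Telo2 (0.0868, 0.0955 and 0.101). Nearest to Shc4 were Phyhipl, Capn6 and Scrn1 (0.226, 0.283 and 0.378), with 52.9, 45.8 and 172 CPM in tumours and under 0.5 CPM in Foxp3Ctrl nodes. The distance is set mostly by the difference between tissues.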

How the data were processed

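The authors deposited whole-number read counts per Ensembl gene, with nodes and tumours in separate tables. Trimming with Trimmomatic 0.36, alignment with STAR 2.5.2b and counting with featureCounts (Subread 1.5.2) on GRCm38 are listed in the submitters' processing notes. The sources used here do not give the annotation release or the strand setting. A further 3 columns of the tumour table match no labelled sample and were not used, so the 4 Foxp3ΔJag1 tumours were not analysed here. Symbols, positions and exon lengths come from GENCODE M21, which matched 49056 of 49315 identifiers.

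CPM uses the total count of each library, and RPKM divides it by the union exon length. Family shares and the level order therefore depend on that length, and the transcripts expressed were not resolved. Each comparison was tested with edgeR 4.0.16 (R 4.3.3) on its own 6 libraries: TMM, filterByExpr, robust quasi-likelihood test, Benjamini-Hochberg adjustment over all genes tested, FDR 0.05. Standard errors and 95% intervals come from the coefficient and its F statistic. In simulated counts 100 genes were changed 2-fold and 100 changed 4-fold. Of these, 62 and 88 were called in the node comparison (18440 genes, 19 false calls among 169). In the tissue comparison 39 and 82 were called (18566 genes, 16 false among 137). The share of false calls was above the FDR of 0.05 in both. Only 200 genes were changed, whereas 73.2% of genes were called between the real tissues, so the simulation does not give the power of that comparison.

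The members and lists were chosen with earlier results of these data known. All members are named, and of each wider list the 3 genes with the smallest p per comparison; any further gene was picked with its values in view. Nothing says how many litters or cages the mice came from, and p-values measure the spread between these samples. Replicates differed by far more than sampling noise (chi-square per degree of freedom 17.1 to 75.4). Control node and tumour with the same number carry the same mouse code, and their deviations from group means correlated at -0.0827, 0.127 and -0.00272. The replicate numbers of the genotype comparison join different mice. The counts of genes and members called and the members' fold changes, but not the wider lists, family shares or level order, were recomputed with other scalings (size factors from DESeq2, or library size only), with DESeq2 1.42.0 and limma-voom 3.58.1 as tests, other filters, a replicate block, a joint fit of 9 libraries and leaving out each replicate.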

Additional observations from a re-analysis of the deposited data

How the results depend on the processing

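The count of members called was 0 in the genotype comparison under all 14 alternatives. In the tissue comparison it was 9 under the 8 alternatives that keep all libraries and 8 to 9 when single libraries were left out. Over all genes, the genotype comparison gave 7 calls in edgeR and 70 with DESeq2, 16 with no filter on low counts, 11 with the replicate block, and 6 to 21 when single nodes were left out (21 without Foxp3Ctrl replicate 3, 16 without Foxp3ΔJag1 replicate 2). The same block in the tissue comparison changed no member's call, with 13375 calls over all genes against 13583.

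No member's log2 fold change reversed in the tissue comparison except that of Etv5, which ranged from -0.038 to 0.78 when single libraries were left out. In the genotype comparison that of Braf, near 0, was 0.015 with library size only and 0.0073 with the filter set to 1 CPM in 3 libraries. With single nodes left out the values of Dusp4, Spry4, Spred1, Etv4, Etv5 and Braf took both signs, within ranges of -0.14 to 0.016 for Dusp4, -0.24 to 0.11 for Spry4, -0.019 to 0.041 for Spred1, -0.44 to 0.14 for Etv4, -0.11 to 0.041 for Etv5 and -0.071 to 0.079 for Braf. Those of Dusp6, Etv1, Shc4 and Spry2 kept their sign. Etv4 and Shc4 could not be tested there with that filter. The cause of these shifts was not tested. With 3 mice a group and under 60 counts of Etv1, Etv4 or Shc4 per node, small differences in these 3 genes were not detectable at this depth.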
